A study of Saccharomyces cerevisiae W303 with 8 samples.

Results

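Budding yeast cells of a strain labelled as lacking CDC55 and of its control were compared after 30 min in 0.4 M NaCl, over every gene that could be measured on both arrays. The comparison is the log2 ratio of the array of the cdc55 strain at 30 min minus that of the array of the control strain at 30 min, so it rests on 2 of the 8 samples of the series. Of the 6256 probes on the array, 5899 probes for 5874 genes entered it. Both strains are in the W303 background and are labelled msn2msn4, that is, as lacking MSN2 and MSN4, and both carry the plasmid pMsn2pMsn2DNES, whose construction was not analysed here. The control strain has no further change, and the cdc55 strain is labelled as lacking CDC55 as well. Cells grew in YPD at 30 °C to an optical density of about 1, and NaCl was then added; samples were taken at 0, 10, 20 and 30 min, 1 array per strain and time. Every array carried the sample in Cy5 and the same RNA, from the untreated control strain, in Cy3. A level below is therefore the log2 ratio of a sample to the untreated control strain, and a difference is the level in the cdc55 strain minus the level in the control strain at the same time. Nothing in the labels repeats a culture, so a difference between the 2 arrays at 30 min can be one between cultures as well as between strains.

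Cdc55 is a B-type subunit of PP2A, a protein phosphatase, and guides the enzyme to part of its substrates. Msn2 and Msn4 are related transcription factors that enter the nucleus under stress and bind stress response elements in the promoters of genes for protection and for storage carbohydrates. The kinase Hog1 is activated by high osmolarity and drives, with partner factors, genes for glycerol production and ion export. In the same minutes yeast normally lowers the messenger RNAs for building ribosomes and raises them again as cells adapt. By its title, the study is about control of the hyperosmolarity response by this phosphatase by way of Msn2 and Msn4.

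The files of 4 of the 8 samples had to be reassigned before any comparison. The table of processed values deposited with the series holds a column per sample, and of 5742 rows without gaps 5646 (98.3%) matched a single probe on all 8 arrays, within 0.01 in log2 ratio, once control at 30 min was exchanged with cdc55 at 20 min, and control at 10 min with cdc55 at 0 min. With the files as attached 2 rows did. The comparison at 30 min therefore uses, for the control strain, the scanner file attached to cdc55 at 20 min. With the files as attached the same subtraction would compare that strain at 30 min with itself at 20 min, and it gave 352 probes 2-fold higher and 133 lower. The median Cy5 signal was 10418 on the control array and 8698 on the cdc55 array over a median background of 47.5 and 47, and no spot was saturated.

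The control strain at 0 min, hybridised against its own RNA, measures the noise of 1 array: its levels had an SD of 0.15 and 2 probes lay past 2-fold. The 2 spots of a probe differed by a median of 0.08 on the log2 scale. The strain difference at 30 min had an SD of 0.65 over the 5899 probes and a median of -0.05. Probes with a difference of 1 or more in size, which is 2-fold, are called higher or lower below. By this rule 321 probes (5.44%) were higher and 320 (5.42%) lower in the cdc55 strain. In 287 of the 321 and in 257 of the 320 every pair of spots was past 2-fold by itself, and 20 of the 320 were above background in Cy5 in the control strain only. For 18 of these 20 the fold can be given only as a bound under 2-fold, and counts of lower genes include them by their measured difference. A difference of 4-fold was reached by 32 probes upward and 41 downward, and one of 8-fold by 6 and 4. Counted with 1 probe a gene, 319 genes (5.43%) were higher and 320 (5.45%) lower. Genes just inside the rule were DBP6 and CAN1 upward and CDC55 and ATG4 downward, and those just outside were FPR4 and MMT1 upward and CAT5 and RHO5 downward; all 8 differences round to 1 in size. Among 25 genes with several probes the probes differed by a median of 0.17, and in 3 genes they had opposite signs.

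CDC55 itself was at 0.46 in the control strain and at -0.54 in the cdc55 strain at 30 min, just past 2-fold. The probe was above background on all 8 arrays, and its place relative to the deleted stretch was not analysed here. MSN2 was above background in the Cy3 reference on only 2 of 8 arrays and was not tested. The MSN4 probe was well measured on each of the 8 arrays, in strains labelled as lacking the gene, and differed by -0.34 at 30 min. Of the remaining markers, 3 that the labels do not mention differed in RNA level past 2-fold. Whether the strains differ in sequence at these genes was not tested. ADE2, of purine synthesis, was at -0.11 in the control strain and at 2.95 in the cdc55 strain. MET17, of sulfur assimilation, was at -1.23 and -3.64. CAN1, the arginine permease, was at -0.29 and 0.71. All 3 already differed in the same direction before salt, by 1.86, -2.08 and 0.65. HIS3, LYS2, LEU2, TRP1 and URA3 were within 2-fold at 30 min, with differences of -0.88, -0.92, -0.18, 0.06 and 0.51. Before salt HIS3 was past 2-fold, at 0.05 in the control strain and -1.07 in the cdc55 strain. LYS2 was then at -0.02 and -0.69, LEU2 at 0.05 and -0.91, TRP1 at 0.22 and 0.88, and URA3 at -0.05 and -0.40. Of the mating-type markers, 5 tested genes of type a and 4 of type alpha lay within 2-fold.

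A model over all 8 arrays gave the only test the design allows. The model has a term for each time, a strain term shared by 0, 10 and 20 min and one of its own for 30 min. With it limma draws the spread from how the strain difference moved among the 3 earlier times. This spread does not hold that between repeated cultures. Of 5888 probes with values on all arrays limma called 254 (4.31%) higher and 341 (5.79%) lower in the cdc55 strain at 30 min, at an adjusted p under 0.05. Of the 30 genes with the most extreme differences 27 passed, with adjusted p from 0.0115 to 0.103 over the 30 in limma. These 30 were picked by the same difference that limma tests, so their passing is no separate support. Without the 0 min arrays 21 of the 30 passed and the total fell to 176 probes, and without the 20 min arrays it was 1543. Whether the difference at 30 min stood apart from that at the earlier times was tested as a contrast in the same model. There limma called 0 probes (0.0%), with 857 at an unadjusted p under 0.05 and 425 called without the 20 min arrays. None of the accounts below that set 30 min beside earlier times therefore has a passing test over all arrays, and they are descriptions.

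The genes higher in the cdc55 strain were mostly genes that salt had lowered in the control strain and that stood near their unstressed level in the cdc55 strain. The 321 higher probes had a median level of -1.24 in the control strain and 0.21 in the cdc55 strain. In 221 of them the control strain was 2-fold or more below the untreated reference, and in 210 of these the cdc55 strain was within 2-fold of it. In 4 the control strain was 2-fold or more above the reference. The 320 lower probes were more mixed, with medians of 0.61 and -0.80. In 114 of them the control strain was 2-fold or more above the reference; the cdc55 strain was then within 2-fold of it for 76, above it too for 35 and 2-fold below it for 3. In 116 others the control strain was near the reference and the cdc55 strain 2-fold or more below.

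**Figure D1:**
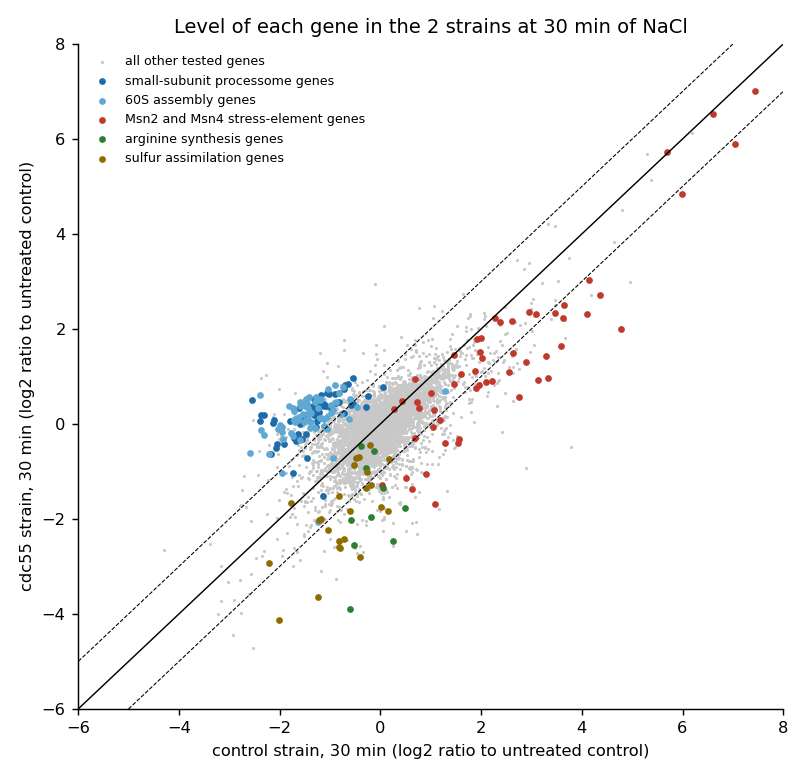
Level of every tested gene at 30 min in the control strain (horizontal axis) and the cdc55 strain (vertical axis), both as log2 ratio to the untreated control strain; each point is 1 gene on 1 array per strain, the solid line marks equal levels and the dashed lines a 2-fold difference. Of the processome and 60S assembly genes (blue) 51 of 60 and 60 of 67 lie on or above the upper dashed line, with list medians of -1.32 and -1.42 on the horizontal and 0.26 and 0.21 on the vertical axis, and most Msn2 and Msn4 genes (red) lie below the solid line.

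Ribosome assembly made up the largest share of the higher genes among the lists. The small-subunit processome folds and cuts the RNA precursor of the small ribosomal subunit, and 51 of its 60 listed genes were higher and 0 lower, with a median difference of 1.53. Of 67 genes for assembly of the 60S subunit 60 were higher and 0 lower, with a median of 1.62. Over all 5874 genes the median was -0.05 and 5.43% were higher. The limma model passed 24 and 29 of these genes, all higher. Of 38 genes for RNA polymerases I and III, which make ribosomal RNA and small RNAs, and for their initiation factors, 15 were higher and 0 lower, and the median was 0.94. Split by kind after the values were seen, the 22 subunit genes held 14 of the higher genes, with a median of 1.11 and a range from 0.29 to 1.64. The 16 initiation factor genes held 1, RRN3, with a median of -0.13 and a range from -0.67 to 1.44. These 3 lists together held 126 of the 319 higher genes (39.5%), which is 76.4% of their 165 members.

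DHR2, a nucleolar RNA helicase of the processome, shows the course. In control cells its level was 0.03, -1.98, -4.74 and -2.54 at 0, 10, 20 and 30 min, and in cdc55 cells 0.90, -2.20, -3.13 and 0.51. Both strains were about equally low at 10 min, the control strain was lower at 20 min, and at 30 min the cdc55 strain was back above the untreated reference while the control strain was not. The difference at 30 min was 3.05, or 8.29-fold (limma adjusted p = 0.0342). LTV1, needed for export of the small-subunit precursor, was at -2.37 in the control strain and 0.18 in the cdc55 strain. HCA4, another processome helicase, was at -2.32 and 0.19. UTP23, a processome component, was at -2.40 and 0.05, and its difference of 2.45 did not pass limma (adjusted p = 0.0709). FAF1, a small-subunit maturation factor, and MRD1, a processome RNA-binding protein, differed by 2.60 and 2.32. NSR1, the yeast nucleolin, differed by 2.36 (adjusted p = 0.104), after 2.43 at 20 min. In all 7 genes the level was under the reference by 2-fold or more in the control strain only.

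On the 60S side SYO1, which brings Rpl5 and Rpl11 to the nucleus, was at -2.40 in the control strain and 0.61 in the cdc55 strain, a difference of 3.01 (8.03-fold). NOP7, an assembly factor of the early 60S precursor, was at -2.37 and -0.12. ARX1, which helps export the 60S precursor, was at -1.81 and 0.37, and SDA1 was at -2.32 and -0.24. These differences were between 2.08 and 2.25. For NOP7 and SDA1 the strains had differed by only 0.65 and 0.38 at 20 min, when both strains were far below the reference. Among the polymerase I subunits RPA34, RPA190, RPA49 and RPA43 differed by 1.57 to 1.64, with levels of -2.22 to -1.54 in control cells and -0.60 to 0.10 in cdc55 cells. The 7 RNA polymerase II subunit genes had a median difference of 0.00 with 0 past 2-fold. The 4 with the most extreme values there were RPB7 (-0.66), RPB9 (0.46), RPB3 (0.38) and RPB4 (-0.19).

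The rest of the translation machinery moved less. Of 136 cytosolic ribosomal protein genes 8 were higher and 1 lower, against 5.43% and 5.45% over all genes. Yet 124 had a positive difference, with a median of 0.47. RPL43B, RPS27A and RPL31B differed by 1.28, 1.27 and 1.15 and RPS9A by -1.28. Most of these genes have a near-identical paralog whose RNA a probe may also bind, so single values are uncertain. Of 36 translation factor genes 1 was higher, RLI1, a recycling factor, at 1.03, and the list had a median of 0.36. Of 20 tRNA synthetase genes 0 were past 2-fold and the median was 0.21; MES1 was the furthest at 0.84. Mitochondrial ribosomal protein genes went the other way, with a median of -0.49, 69 of 72 negative and 1 past 2-fold, MRPL16 at -1.05. The median of that list was -0.47 before salt, -0.19 at 10 min and -0.13 at 20 min.

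Where the strains stood on the way back can be counted over all probes. At 20 min 443 probes were 2-fold or more below the reference in both strains. At 30 min 324 of them (73.1%) were still there in the control strain and 124 (28.0%) in the cdc55 strain, and their median level had gone from -2.02 to -1.29 in control cells and from -1.70 to -0.35 in cdc55 cells. At the same time 389 probes were 2-fold or more above the reference in both strains. At 30 min 285 of them (73.3%) remained so in the control strain and 194 (49.9%) in the cdc55 strain. The medians of these probes went from 1.65 to 1.34 and from 1.47 to 0.998. The probes were picked on the 20 min arrays alone.

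**Figure D2:**
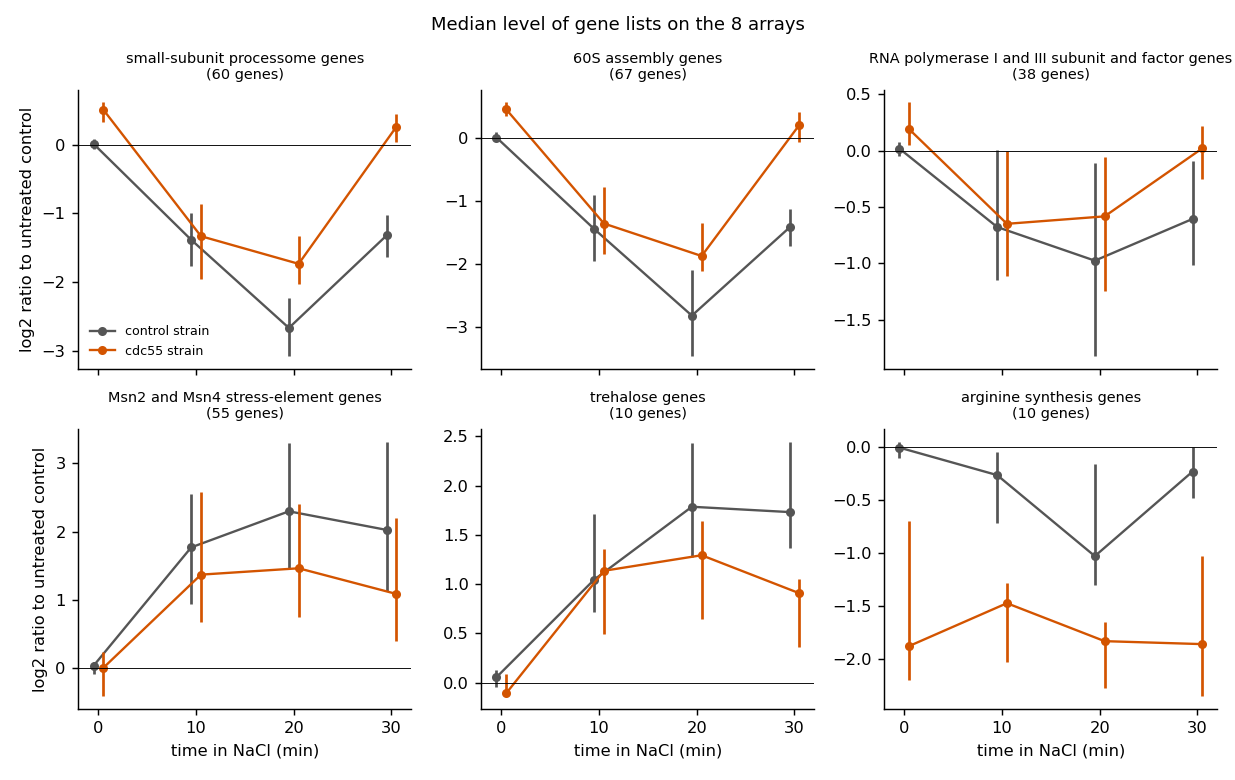
Median level of 6 gene lists (vertical axis, log2 ratio to the untreated control strain) at 0, 10, 20 and 30 min of NaCl (horizontal axis) in the control strain (grey) and the cdc55 strain (orange), with 1 array per point; vertical lines run from the lower to the upper quartile over the genes of a list and are no replicate error. For the processome list the grey medians are 0.01, -1.38, -2.66 and -1.32 and the orange ones 0.51, -1.33, -1.73 and 0.26.

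Several other genes of growth were also higher in the cdc55 strain. HPT1, the purine salvage enzyme for hypoxanthine and guanine, was at -2.01 in the control strain and 0.73 in the cdc55 strain. AAH1, adenine deaminase, was at -4.29 and -2.65, so it stayed far below the reference in both. URA7, a CTP synthase, was at -2.71 and -1.09 and GUA1, GMP synthase, at -1.69 and -0.33. In all, 6 of 12 purine salvage and GMP genes were higher and 0 lower. Over all genes 5.43% were higher and 5.45% lower. Of 15 purine synthesis genes 4 were higher and 0 lower: ADE2 (3.07), ADE17 (1.99), the bifunctional gene listed as ADE57 (1.32) and ADE1 (1.19). Unlike the assembly genes, ADE2, ADE17 and ADE1 were near the reference in the control strain (-0.11, 0.06 and -0.26). In the cdc55 strain they were above it (2.95, 2.05 and 0.93). ADE57 was at -0.97 in the control strain and 0.35 in the cdc55 strain. ADE2 had already differed by 1.86 before salt, and ADE17, ADE57 and ADE1 by 0.61, 0.28 and 0.39. TOD6, a repressor of ribosome assembly genes, was itself at -1.06 in the control strain and 1.28 in the cdc55 strain. Its difference was -0.08 at 10 min and 1.95 at 20 min, and at 30 min it was 2.35 (limma adjusted p = 0.0683). RKI1, of the pentose phosphate pathway, was at -1.97 and -0.36.

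The 3 highest differences were not of assembly genes: PRM7, BSC1 and ADE2. PRM7 was at -2.38 in the control strain and 0.97 in the cdc55 strain, and BSC1 at -2.27 and 1.03, which are differences of 3.35 (10.2-fold) and 3.30 (9.83-fold). By their systematic names, YDL039C and YDL037C, they lie close together on 1 chromosome arm. They had differed by 2.32 and 1.69 before salt, as ADE2 had. Further down the 15 highest, HSP30, a plasma membrane heat shock protein, was at -0.72 and 1.76, and SET6, a SET-domain protein, at -1.20 and 1.49.

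**Figure D3:**
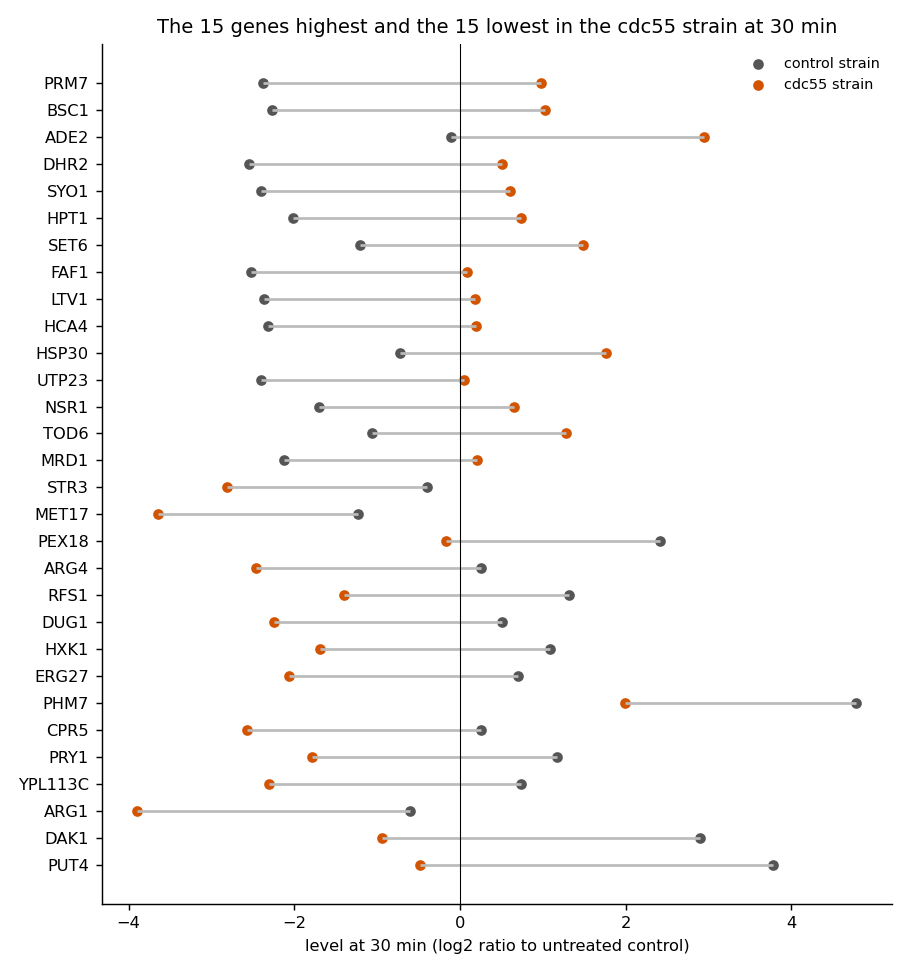
Level at 30 min (horizontal axis, log2 ratio to the untreated control strain) of the 15 genes highest and the 15 lowest in the cdc55 strain, with 1 array per strain; grey points are the control strain and orange points the cdc55 strain, and the line between them is the difference. It runs from 3.35 for PRM7 at the top to -4.27 for PUT4 at the bottom.

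Stress genes were lower in the cdc55 strain, though as a list they stayed above the unstressed level. Of 55 genes known as targets of Msn2 and Msn4 through stress response elements 31 were lower (5.45% over all genes) and 0 higher, and 51 had a negative difference. They are 9.69% of the lower genes. Their median level was 2.03 in the control strain and 1.09 in the cdc55 strain, and the median difference was -1.13. The limma model passed 18, all lower. Before salt the list's median difference was 0.02, and the arrays of 10 and 20 min gave -0.19 and -0.95. PHM7, a membrane protein gene, had levels of 0.10, 5.81, 6.03 and 4.79 in control cells at the 4 times, against 0.38, 5.87, 4.70 and 1.99 in cdc55 cells. The strains differed by 0.27, 0.06 and -1.32 at the earlier times, with a difference of -2.79 (6.93-fold lower) at 30 min. RTN2, a reticulon, was at 3.34 and 0.96 at 30 min, and PGM2, the main phosphoglucomutase, at 3.14 and 0.93. HXK1, hexokinase 1, was at 1.08 in the control strain and -1.69 in the cdc55 strain, but it had differed by -2.42 before salt.

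Some strongly induced genes differed by less than 2-fold; HSP12, GPP2, STL1, GPD1 and GRE2 were picked out for this after their values were seen. HSP12, a membrane-bound small heat shock protein, was at 7.43 in the control strain and 7.01 in the cdc55 strain. GPP2, a glycerol phosphatase, was at 6.18 and 6.12, STL1, the glycerol symporter, at 5.37 and 5.13, and GPD1, glycerol 3-phosphate dehydrogenase, at 4.80 and 4.50. GRE2, a reductase gene of the Hog1 set, was at 5.29 and 5.69. Other genes with high levels were lower: CTT1, the cytosolic catalase, at 7.04 and 5.89, TKL2, a transketolase, at 4.37 and 2.70, and PHM7.

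Storage carbohydrate genes were on the lower side as well. Among all genes 5.45% were lower and 5.43% higher. Of 10 trehalose genes 6 were lower and 0 higher, with a median difference of -1.08 and a range from -2.21 to -0.34. UGP1, which makes UDP-glucose, was at 1.56 in the control strain and -0.31 in the cdc55 strain. TSL1, a regulatory subunit of trehalose synthase, was at 2.56 and 1.09, and TPS1, its catalytic subunit, at 2.09 and 0.88. Of 14 glycogen genes 9 were lower and 0 higher, with a median of -1.17. GSY1, a glycogen synthase, was at 0.90 and -1.07, IGD1, an inhibitor of the debranching enzyme, at 1.28 and -0.40, and GLG1, glycogenin, differed by -1.64. GAC1, a regulatory subunit of protein phosphatase 1, is counted among the 9 and among the 31 Msn2 and Msn4 genes, but was above background in Cy5 in the control strain only, and was at least 1.94-fold lower in the cdc55 strain. GSY1 already differed by -1.95 at 10 min, against -1.97 at 30 min, while UGP1, TSL1, TPS1, IGD1 and GLG1 then differed by -0.54 to -0.04. Before salt GSY1 differed by -0.89, and UGP1, TSL1, TPS1, IGD1 and GLG1 by -0.63, -0.72, -0.27, -0.61 and -0.24. The median differences before salt were -0.08 for the trehalose list and -0.21 for the glycogen list.

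Genes driven by Hog1 and genes of glycerol split. Among all genes 5.45% were lower and 5.43% higher. Of 17 Hog1-dependent osmostress genes 8 were lower and 0 higher, with medians of 4.15 in the control strain and 3.44 in the cdc55 strain. The median difference ran 0.27, -0.35 and -0.59 over 10, 20 and 30 min. DAK1, dihydroxyacetone kinase, had levels of -0.04, 1.12, 2.68 and 2.90 in control cells over the 4 times, against -1.76, 0.30, 0.80 and -0.94 in cdc55 cells. Its level in the cdc55 strain at 30 min was thus below the reference, and the difference of -3.84 (14.3-fold lower) passed limma (adjusted p = 0.0128). CWP1, a cell wall mannoprotein, was at 2.35 and 0.92, and GCY1, of the dihydroxyacetone route, at 1.22 and -0.21. ENA1, the sodium pump, was at 1.92 and 0.70; its neighbour ENA2, a near-identical copy, was at 2.70 and 1.57, and their probes may not tell them apart. Of 16 glycerol genes 3 were lower, DAK1, GCY1 and GUT2, a glycerol 3-phosphate dehydrogenase of mitochondria that uses up glycerol 3-phosphate, at 2.34 and 1.07. The median of the glycerol list was -0.26.

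Several neighbouring sets of stress genes showed less. Their counts stand beside 5.43% higher and 5.45% lower over all genes. Of 25 heat shock protein genes 2 were lower, SSA4 (-1.45) and AHA1 (-1.01), and the list median was -0.35. Of 21 antioxidant genes 3 were lower; TRX1, a thioredoxin, differed by -1.84 and had differed by -1.75 before salt, and GPX1, counted among the 3, was above background in 1 strain only, with a bound of at least 1.43-fold lower. Of 13 pentose phosphate genes the stress paralogs TKL2, SOL4 and GND2 were lower, by 1.66, 1.39 and 1.09 on the log2 scale, while RKI1 was higher. The 20 genes of the Hog1 pathway itself had a median of 0.00, with RCK2, a kinase downstream of Hog1, at -1.01 as the only 1 past 2-fold. MAP kinase phosphatase genes had 0 of 13 past 2-fold, with SDP1 at -0.91, and genes of Ras and protein kinase A 0 of 18, with CYR1, adenylate cyclase, at -0.98. In the PP2A list SAP185, which associates with the related phosphatase Sit4, was at 1.47, CDC55 just past 2-fold lower and 23 of 25 genes within 2-fold. Of 37 proteasome genes 1 was lower, PRE2 at -1.57, and the median was 0.03, after 0.45, 0.56 and 0.31 at the earlier times.

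**Figure D4:**
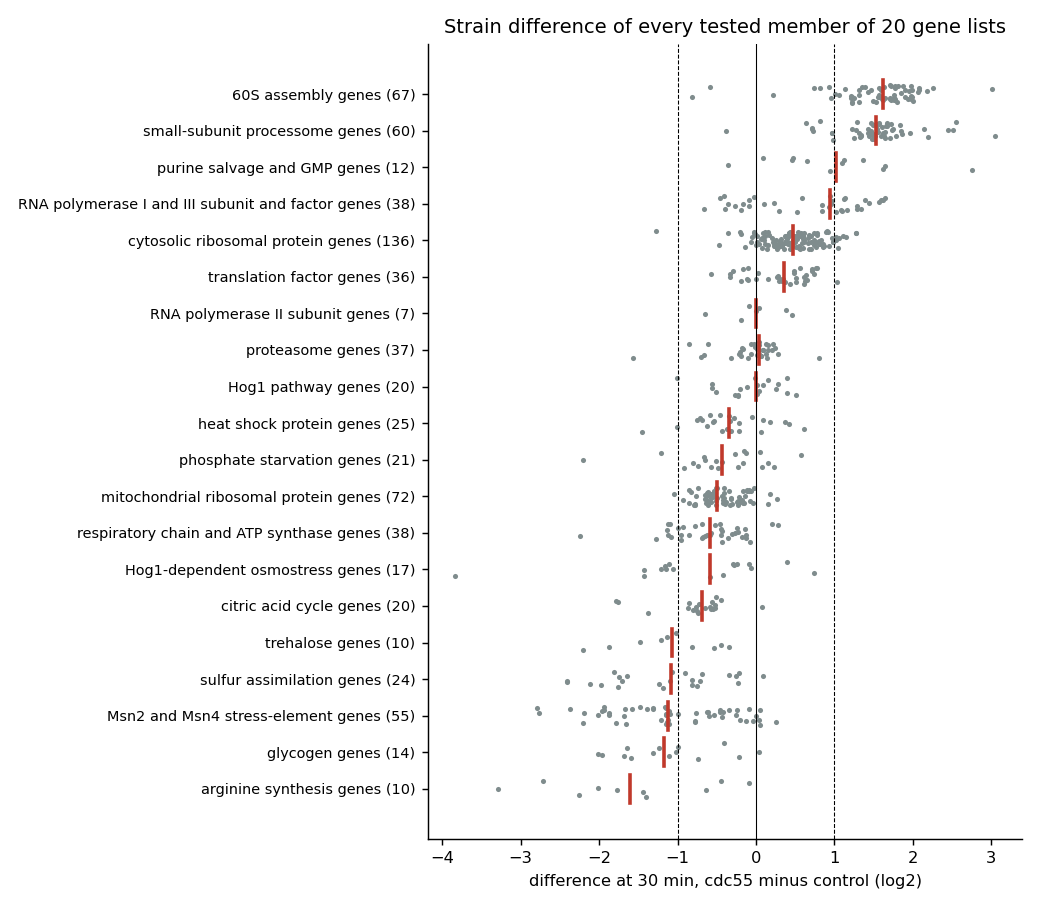
Difference at 30 min (horizontal axis, cdc55 minus control, log2) of every tested member of 20 gene lists, with the number of members in brackets; each point is 1 gene, red bars are list medians and dashed lines mark 2-fold. The medians run from 1.62 for 60S assembly to -1.61 for arginine synthesis, and those of the RNA polymerase II, proteasome and Hog1 pathway lists are 0.00, 0.03 and 0.00.

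The proline permease gene PUT4 had the lowest difference of all. Its levels were 0.14, 4.87, 4.88 and 3.78 in control cells over the 4 times, against -1.95, 4.39, 2.46 and -0.48 in cdc55 cells. It stood far above the reference in both strains at 10 min, and at 30 min the control strain was still far above the reference while the cdc55 strain was not. The difference was -4.27, or 19.2-fold lower (limma adjusted p = 0.0216). Of the 20 amino acid permease genes 5 were lower and 1, CAN1, higher, against 5.45% and 5.43% over all genes. BAP3, DIP5 and AGP2 differed by -1.40, -1.38 and -1.28. PEX18, a peroxisomal import factor, was at 2.41 in the control strain and -0.16 in the cdc55 strain, and YPL113C at 0.73 and -2.31. RFS1, a flavodoxin-like protein, was at 1.32 and -1.40, and PRY1, a secreted sterol-binding protein, at 1.17 and -1.78.

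Amino acid synthesis genes were lower in a different way, since the strains had parted on them before salt. Of 10 arginine synthesis genes 7 were lower and 0 higher at 30 min. Their median difference was -1.84, -1.25, -0.75 and -1.61 at 0, 10, 20 and 30 min. ARG1, argininosuccinate synthetase, had levels of 0.04, -0.14, -1.23 and -0.60 in control cells over the 4 times, against -3.72, -3.04, -4.03 and -3.89 in cdc55 cells. It lay far below the reference in the cdc55 strain on every array, before salt and after. ARG4, argininosuccinate lyase, was at 0.25 and -2.46 at 30 min, and ARG3, ornithine transcarbamylase, at 0.49 and -1.77. Of 24 sulfur assimilation genes 13 were lower and 0 higher, with a median of -1.08 after -0.95 before salt. MET17 was joined by STR3, cystathionine beta-lyase, at -0.40 and -2.81, MET6, methionine synthase, at -2.01 and -4.12, and MET28, a regulator of the pathway, at 0.15 and -1.83. STR3 had differed by -0.91 before salt and by -2.41 at 30 min. Of 9 lysine genes LYS9 and LYS20 were lower, at -2.25 and -1.75, and of 11 branched-chain genes LEU4 alone, at -1.36. The share of lower genes over all genes was 5.45%. Of 19 histidine and aromatic genes 0 were past 2-fold, and their median was -0.35.

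CPR5, DUG1 and ERG27 were more than 2-fold apart at every time. CPR5, a cyclophilin of the endoplasmic reticulum, differed by -2.34, -2.48, -2.43 and -2.83 at 0, 10, 20 and 30 min. DUG1, a dipeptidase that breaks down cysteinylglycine, differed by -1.92, -2.23, -2.23 and -2.76. ERG27, a ketoreductase of ergosterol synthesis, differed by -1.78, -1.65 and -1.66 at the earlier times and by -2.77 at 30 min. Of the 25 ergosterol genes ERG2 and ERG8 were lower too, at -1.28 and -1.10, and the list median was -0.36. Phosphate starvation genes, targets of Pho4, ran against this, with a median difference of -1.38 before salt and -0.43 at 30 min. PHO5, the secreted acid phosphatase, was at -0.14 in the control strain at 0 min and at -2.53 at 30 min, while the cdc55 strain was at -4.30 and -4.73. The difference thus went from -4.16 to -2.20 with little change in the cdc55 strain. PHO11 and PHO12, near-identical copies, differed by -1.22 and -0.80 at 30 min.

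Energy genes were mostly on the lower side. Among all genes 5.43% were higher and 5.45% lower. Of 20 citric acid cycle genes 19 had a negative difference and 3 were lower, the citrate synthases CIT1, CIT2 and CIT3, at -1.78, -1.75 and -1.38. The median was -0.69, after -0.47 before salt. CIT1 was at 1.43 in the control strain and -0.35 in the cdc55 strain. Of 38 respiratory chain and ATP synthase genes 36 were negative and 7 lower, with a median of -0.58, after -0.49 before salt. INH1, an inhibitor of the ATP synthase, was at 0.70 and -1.54, and had differed by -1.43 before salt. Of 21 glycolysis genes 2 were lower, HXK1 and GLK1, the glucokinase, at 3.65 and 2.50. Of 19 hexose transporter genes and their repressors MIG3 and MIG2 were higher, at 1.57 and 1.14, and MTH1 and HXT7 lower, at -1.27 and -1.05. Before salt MIG3, MIG2, MTH1 and HXT7 differed by 1.08, 0.66, -0.44 and -0.98. HXT7 has a near-identical copy.

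Among cell cycle genes the G1 side differed in a few members. For all lists in this paragraph, 5.43% of all genes were higher and 5.45% lower. A few members past 2-fold in lists of this size are therefore not read as a trait of the list. CLN1, a G1 cyclin, was at -0.66 in the control strain and -2.44 in the cdc55 strain. CLB6, an S-phase cyclin, was at -0.37 and -2.03, with differences within 0.20 at the 3 earlier times, and PCL1, a cyclin of the kinase Pho85, was at 0.76 and -0.69. These were the 3 lower genes of 22, and the list median was -0.26. Mitotic cyclin and mitotic exit genes had 0 of 25 past 2-fold, with CLB2 at 0.75. Histone genes had 0 of 11 past 2-fold and a median of -0.06. Of 32 pheromone response genes 2 were lower, PRM2 (-1.85) and PRM1 (-1.10), with a median of 0.01. Cell wall genes had 2 of 31 lower, CWP1 and PIR3 (-1.14), which had differed by -0.35 and -1.29 before salt. Sodium, potassium and proton transport genes had 2 of 18 lower, ENA1 and ENA2, and autophagy genes 2 of 22, ATG19 (-1.12) and ATG4. Of 22 tested genes for stress transcription factors MGA1, ROX1 and NRG1 were higher, at 1.74, 1.52 and 1.15, and USV1 lower, at -1.23. Before salt MGA1, ROX1, NRG1 and USV1 differed by 1.52, 0.26, 0.10 and 0.01. In the iron list 3 of 25 genes were higher, FRE4 by 1.69 among them, and 3 were lower, FET3 (-1.78), HMX1 (-1.53) and SIT1 (-1.43). Before salt FRE4, FET3, HMX1 and SIT1 differed by 0.31, -2.47, -0.33 and -0.91, so FET3 was further apart then. Copper genes had 0 of 10 past 2-fold, calcineurin pathway genes 1 of 17, CMK1 at -1.04, and genes of daughter cells and cell separation 1 of 14, HO at -1.51.

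The difference at 30 min was the widest of the 4 times on these arrays. The SD of the strain difference was 0.41, 0.39, 0.50 and 0.65 at 0, 10, 20 and 30 min, and the number of higher and lower probes was 41 and 106, then 32 and 104, then 137 and 190, and at last 321 and 320. All 4 comparisons share the Cy3 reference but no sample array. Of the 321 probes higher at 30 min 310 had a positive difference at 20 min and 117 were 2-fold higher there; at 10 min these were 169 and 11, and at 0 min 311 and 22. Of the 320 lower probes 132, 67 and 72 were 2-fold lower at 20, 10 and 0 min. With each strain's own 0 min array subtracted, 187 of 5895 probes changed by 2-fold or more upward in the cdc55 strain relative to the control strain, and 144 downward. Of these, 167 and 110 are also among the probes called at 30 min. By chromosome the median ran from -0.18 on chromosome 6, with chromosome 9 next lowest at -0.10, to 0.01 on chromosome 12. Of the 125 probes on chromosome 6, 2 were higher and 12 lower, against 5.44% and 5.42% over all probes. These values were not tested.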

How the data were processed

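The members of the gene lists, the lists and the comparison were chosen with earlier results of these data known. RNA of 8 samples was hybridised to 2-colour Agilent arrays on 1 slide. Per the file headers, the deposited scanner files hold spot intensity in Cy5 and Cy3 with local background, 0 or 1 flags, and log10 ratios, Cy5 to Cy3, made by the software after background subtraction and dye normalisation; Agilent Feature Extraction 10.5.1.1 made both 30 min files. The deposited table of processed values holds log2 values, and the authors state neither scale nor centring nor direction; matching its rows to the scanner values showed log2 values, Cy5 to Cy3, not centred again. The medians of its 4 control columns over time were -0.00, -0.01, 0.05 and -0.00, and those of its cdc55 columns 0.01, 0.00, 0.02 and 0.01.

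Here the log10 ratio was turned into log2 and averaged over the 2 spots of a probe, leaving out non-uniform spots (6 and 26 on the 30 min arrays) and control spots. A probe entered if it was well above background in Cy3 on both 30 min arrays and in Cy5 on at least 1; 355 failed the first rule and 2 the second. For the 80 probes with Cy5 above background on 1 array only, 20 of them past 2-fold, a fold is given as a bound, from Cy5 signals after loess and Aquantile normalisation, and is open to dye bias. A gene with several probes is given by its brightest. Names come from the arrays and RefSeq; 5766 probes matched RefSeq and 490 kept the name in the file. Named genes are the 15 highest and 15 lowest, the 4 members of a list with the most extreme differences, and fixed checks; 1 gene that this rule names is not reported here. Python 3.11.15, numpy 2.4.6, pandas 2.3.3, matplotlib 3.10.9, R 4.3.3 and limma 3.58.1 were used. The limma model had 6 coefficients and 2 residual degrees of freedom, with Benjamini-Hochberg adjustment over 5888 probes. Tested on simulated data, the test at 30 min called 8% of probes changed by 1 on the log2 scale, 78% by 2, 100% by 3 and 98% by 4. The test of 30 min against the other times called 2%, 58%, 96% and 100%. Unlike the real data, the simulated data had no strain difference built in before 30 min, so these rates may not hold for the real probes. The number of arrays limits the precision.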

Additional observations from a re-analysis of the deposited data

Results flagged for a closer look

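SET6, which encodes a SET-domain protein, moved past 2-fold in opposite directions in the strains. From 0 to 30 min it went from -0.05 to -1.20 in the control strain, a change of -1.15, and from 0.45 to 1.49 in the cdc55 strain, a change of 1.04. The changes differ by 2.20, each rests on 1 array per time, and the difference was not tested. Of the genes named here it was the only one with such a pattern.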

How the results depend on the processing

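No paired analysis was possible because each group holds 1 array and the labels carry no replicate numbers. Counting matches to motifs in promoters was not run, since no promoter sequences were used here. The number of higher and lower probes at 30 min stayed between 297 and 331 and between 262 and 334 under normexp with loess, median centring, the deposited value table, all spots kept, either spot of a probe, no filter on signal, both channels above background on both arrays, and Cy5 signals compared directly. With 1.5-fold as the size rule they were 679 and 850, and with each strain's own 0 min array subtracted, an alternative chosen after seeing the data, 187 and 144. The files as attached set the cdc55 strain at 30 min against itself at 20 min.

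Medians were recomputed for 16 of the 50 lists and not for the others. Apart from the files as attached, 7 of the 16 moved by more than 0.15, the SD of single probes on the control array at 0 min, so a smaller move of a median is not shown to be noise. Normexp with loess gave -0.95 for glycogen and -0.20 for phosphate starvation genes, and the first spot of each probe -0.75 for the Hog1-dependent genes. Cy5 signals compared directly gave -0.92 for trehalose, -1.43 for arginine synthesis, -0.43 for citric acid cycle, -0.34 for respiratory chain and -0.23 for phosphate starvation genes. They also put ENA1, ENA2, CWP1, CTT1, TPS1, GLK1, AHA1, RCK2, PRE2, ERG2, ERG8, RPS9A and MRPL16 within 2-fold, with differences of -0.96 to -0.56. Normexp with loess did so for ENA1, MTH1, ERG2 and PRM1. The causes were not tested.

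With the files as attached the medians were -0.30 for Msn2 and Msn4, -0.59 for trehalose, -0.58 for glycogen, 1.84 for processome, 2.00 for 60S assembly, 0.63 for polymerase I and III and their factors, 0.21 for ribosomal protein, -0.35 for sulfur, -0.36 for citric acid cycle, -0.11 for respiratory chain, 0.55 for purine salvage and 0.42 for phosphate starvation genes, and the lower probes numbered 133. That of arginine synthesis reversed to 0.0520, and so did PRM7 (-0.11), BSC1 (-0.14), ADE2 (-0.0941), ARG1 (0.14), STR3 (0.0700), MIG2 (-0.11), RPS9A (0.71), LYS20 (0.11), PHO5 (0.13), PHO11 (0.56), FET3 (1.03), SIT1 (1.74), PIR3 (0.0221) and USV1 (0.19).

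For the strain difference at 30 min limma called 0 probes with the files as attached (187 at an unadjusted p under 0.05), 176 without the 0 min arrays and 1543 without those of 20 min, against 644 to 822 with loess, an intensity trend, median centring or without those of 10 min. With the 0 min arrays left out DHR2, SYO1, HPT1, SET6, HSP30 and PHM7 no longer passed (limma adjusted p from 0.0515 to 0.0711). UTP23, NSR1 and TOD6 passed without the 10 min or the 20 min arrays (adjusted p from 0.00104 to 0.0312). The test of 30 min against the other times called 425 probes without the 20 min arrays and 0 under each other setting. With 2 residual degrees of freedom, a low count says little about small differences.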

Other observations

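Of the 4 further groups described here, all were put together after the values were seen, so their counts are descriptions only. Over all genes 5.43% were higher and 5.45% lower. Of 57 genes that modify transfer RNAs and translation factors 27 were higher in the cdc55 strain and 0 lower, and the list median was 0.97. RMT2, an arginine methyltransferase, was at -2.13 in the control strain and 0.14 in the cdc55 strain. EFM6, which methylates an elongation factor, was at -0.85 and 1.21, TRM11, a tRNA methyltransferase, at -1.70 and 0.19, and LIA1, deoxyhypusine hydroxylase, at -1.98 and -0.35. Median differences of this group were 0.22, -0.06 and 0.40 at 0, 10 and 20 min.

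Of 34 genes of carbon use that glucose represses 14 were lower and 0 higher, with a median of -0.70. POX1 and POT1, of fatty acid oxidation, had levels of 1.14 and 2.47 in control cells, against -0.85 and 0.65 in cdc55 cells. Their regulators CAT8 and ADR1 differed by -1.83 and -1.81. Of 42 measured sporulation genes 17 were lower and 1 higher, with a median of -0.71. The median had been -0.35 before salt, -0.54 at 10 min and -0.67 at 20 min. Among the 17 lower genes 5 were above background in Cy5 in the control strain only. RIM4 was at 0.76 and -1.44, and MIP6 at -0.50 and -2.61. Before salt RIM4 and MIP6 had differed by -0.90 and -1.43. PES4 and SPO74 were above background in Cy5 in the control strain only, and were at least 2.30-fold and 1.77-fold lower in the cdc55 strain. SRL4 was in the same state, at least 2.47-fold lower.

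All 8 helicase genes of the telomeric Y' elements were lower, from -1.51 to -1.17, after medians of -0.66, -0.59 and -0.44 at 0, 10 and 20 min. These copies are near-identical, so the 8 probes may measure 1 pool of RNA and do not count as separate genes.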
